A study of Homo sapiens with 6 samples.

Results

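The genes described here make the molecules that present peptides on MHC class I: the class I heavy chains HLA-B, HLA-C, HLA-E and HLA-F, their light chain B2M, the peptide transporter subunits TAP1 and TAP2, and the immunoproteasome subunits PSMB8 and PSMB9. They are 9 of 19775 genes with a probe set of their own on the array, and 23 of 54675 probe sets carry the symbol of 1 of them. For each gene the probe set brightest on average was read, and the others served as a check. RNA of 3 lines of Burkitt lymphoma, a MYC-driven B-cell lymphoma, was measured on Affymetrix U133 Plus arrays: Namalwa, Raji and Ramos. Transfected cells of each line were measured on 1 array under the label empty and 1 under the label miR26a, which makes 3 arrays a group and 2 a line. All 6 samples, empty ones included, are listed with the same doxycycline induction of 0.5 µg/ml for 72 h. Whether a transfected line was a clone or a pool, and whether arrays came from separate cultures, is not given in the sources used here. The p-values therefore measure the spread between these samples, which may be technical, and in bulk RNA fewer cells with a transcript and less of it per cell cannot be told apart.

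Class I molecules carry fragments of a cell's own proteins to its surface, where CD8+ T cells inspect them. The proteasome cuts the proteins, and in lymphoid cells and under interferon its catalytic subunits are replaced by those of the immunoproteasome. TAP1 and TAP2 pump the peptides into the endoplasmic reticulum, and a loading complex fits them into a heavy chain paired with B2M. Burkitt lymphoma cells are known for weak presentation through this route, and Polycomb repressive complex 2, whose methyltransferase EZH2 stands in the study's title, is known to silence class I pathway genes in some tumours. The induced microRNA, miR-26a, pairs with target RNAs through its seed, bases 2 to 8, shown in capitals in its 22-base mature sequence from RefSeq (GRCh38.p14).

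hsa-miR-26a-5p: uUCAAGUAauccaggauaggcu

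The upstream sequences of 5 genes are shown, 1 or more for each role, because interferon and NF-kB elements there are the known route by which class I genes are switched on together, while the 5 genes differed in direction here. RefSeq promoter windows (GRCh38.p14) matched 8 of the 9 genes, and the 250 bases before the annotated start were searched on both strands for 4 motifs. These were AANNGAAA, which interferon regulatory factors bind, the NF-kB consensus, TGACGC, the core of the X2 box of MHC promoters, and CCAAT, the core of the Y box, which NF-Y binds. Capitals mark every match, and neighbouring matches can overlap.

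HLA-B, chr6:31357180-31357429, minus strand: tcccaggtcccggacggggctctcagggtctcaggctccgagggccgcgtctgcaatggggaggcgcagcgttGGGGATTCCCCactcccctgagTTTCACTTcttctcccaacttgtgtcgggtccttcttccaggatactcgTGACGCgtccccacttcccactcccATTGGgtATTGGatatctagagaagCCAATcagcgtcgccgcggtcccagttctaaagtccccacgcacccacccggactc

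HLA-F, chr6:29723184-29723433, plus strand: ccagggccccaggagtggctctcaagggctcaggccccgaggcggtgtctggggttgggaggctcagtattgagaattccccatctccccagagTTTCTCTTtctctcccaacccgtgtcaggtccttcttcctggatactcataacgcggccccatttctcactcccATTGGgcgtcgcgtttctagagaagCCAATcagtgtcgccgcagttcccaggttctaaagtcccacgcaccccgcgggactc

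B2M, chr15:44711267-44711516, plus strand: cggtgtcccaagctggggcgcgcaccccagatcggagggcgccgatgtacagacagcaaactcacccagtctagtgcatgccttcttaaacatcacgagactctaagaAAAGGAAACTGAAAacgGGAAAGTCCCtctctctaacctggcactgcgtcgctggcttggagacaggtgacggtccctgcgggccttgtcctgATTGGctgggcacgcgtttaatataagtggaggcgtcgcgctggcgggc

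TAP1, chr6:32853705-32853954, minus strand: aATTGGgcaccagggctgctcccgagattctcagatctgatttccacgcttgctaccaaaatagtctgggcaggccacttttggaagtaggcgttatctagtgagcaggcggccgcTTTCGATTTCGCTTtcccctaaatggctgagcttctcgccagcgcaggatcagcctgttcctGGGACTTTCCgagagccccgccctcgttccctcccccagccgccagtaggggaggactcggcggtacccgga

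PSMB9, chr6:32853942-32854191, plus strand: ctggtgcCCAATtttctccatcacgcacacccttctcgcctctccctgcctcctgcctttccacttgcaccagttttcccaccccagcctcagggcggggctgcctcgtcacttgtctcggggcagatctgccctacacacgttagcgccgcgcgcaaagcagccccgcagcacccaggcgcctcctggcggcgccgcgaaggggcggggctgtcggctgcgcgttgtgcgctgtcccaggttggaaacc

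The 8 genes had 10 windows, and the further windows, of TAP1 and PSMB8, held none of the 4 motifs. AANNGAAA was found upstream of 6 of the 8 genes, in 6 of the 10 windows, against 20.3% of all 35116 windows of this length. All windows include noncoding genes and further starts of a gene. The NF-kB consensus was found for 4 of the 8 genes, in 4 of the 10 windows (5.21% of all windows). TGACGC was found for 3 genes, in 3 windows (7.67%), and CCAAT for 6, in 6 windows (32% of all windows). HLA-B and HLA-C held all 4 motifs, HLA-F held AANNGAAA and CCAAT, and PSMB9 held CCAAT alone. TAP1 and PSMB9 are neighbours on chromosome 6 and are read in opposite directions from starts 488 bases apart, while TAP2 and PSMB8 lie next to them on the other side of TAP1. The windows of TAP1 and PSMB9 share 13 bases at their far ends, and their CCAAT matches are the same site read on opposite strands. That site is counted for both genes and both windows. A match is a description of these letters and no evidence of binding.

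The deposited values are log2 intensities, so a difference of 1 is 2-fold, and levels of different probe sets cannot be set against each other. Of 6 B-cell markers the 5 measured here (MS4A1, CD79A, CD79B, CD22 and PAX5) were above the level minimum of 4.42, the median of all probe sets, on every array. Of the germinal centre markers measured, 3 or 4 of 4 were above it, BACH2 being the exception on 1 Raji array. The T-cell marker CD3D and the monocyte marker CD14 were below it on all 6 arrays. Of the marker lists of other cells, 2 of 5 genes were above it for T cells, 0 or 1 of 4 for natural killer cells and for monocytes, 2 or 3 of 4 for fibroblasts and 2 or 3 of 3 for red cells. Array medians lay between 4.36 and 4.44. The Namalwa empty array stood apart: its ACTB control probe sets differed by 3.58 log2 between the 3′ and 5′ ends, against 1.80 to 1.98 on the other 5 arrays, a sign of RNA quality. The Ramos empty array had the highest 18S signal, 8.99 against 6.68 to 7.72 on the other 5. Values without Namalwa, or without single arrays of a pair of lines, stand beside the results concerned. Of the 9 genes, 9 passed the level minimum, and 12012 genes in all were tested with limma.

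By the brightest probe sets, the 4 heavy chains and PSMB8 were higher with miR26a in all 3 lines. TAP1 was lower in all 3, and B2M, TAP2 and PSMB9 had no common direction. Being higher in every line was the case for 5 of the 9 genes, against 15.5% of all tested genes, and being lower for 1 of 9, against 19.6%. In Namalwa 6 of the 9 were higher (47.6% of all genes), in Raji 7 (46.7%) and in Ramos 6 (48.3%), but by different amounts: the 9 genes had median changes of 0.37, 0.02 and 0.07, where the medians of all genes were -0.01, -0.02 and -0.01. At an adjusted p under 0.05 (limma, line as a block) 0 of the 9 passed, and of all genes 0% passed. At an unadjusted p under 0.05 there were 2 of 9, HLA-E and TAP1, against 12.9% of all genes. In Raji and Ramos alone, without the line of the array that stood apart, 6 genes were higher in both lines and 2 lower in both, against 25.5% and 30.3% of all genes. Over 3 pairs a two-sided exact sign-flip test could not go below p = 0.25.

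**Figure D1:**
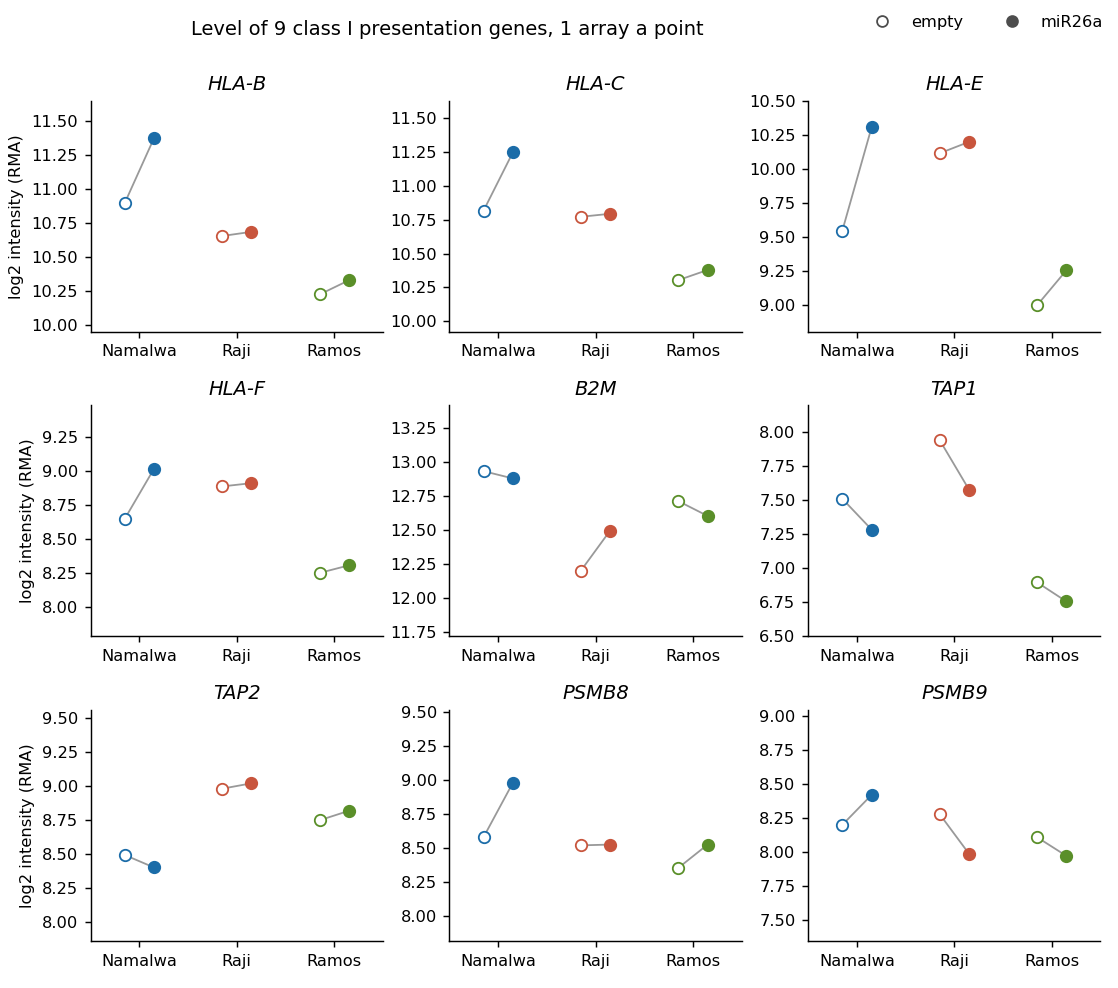
Log2 intensity (RMA) of each of the 9 genes on each array, by line, with open points for empty and filled points for miR26a joined within a line; every panel spans the same range of log2 units. The heavy chains and PSMB8 step up most in Namalwa, and TAP1 steps down in all 3 lines.

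HLA-B and HLA-C are classical heavy chains, which present peptides to T cells. The HLA-B level was 10.90 in the Namalwa empty array and 11.38 in its miR26a array, 10.66 and 10.69 in Raji, and 10.23 and 10.33 in Ramos. The levels of the groups overlapped. Namalwa changed by 0.48, Ramos by 0.10 and Raji by 0.03. The mean change was 0.20 (SE 0.12, 95% interval -0.06 to 0.47, limma adjusted p = 0.510). HLA-C was at 10.82 and 11.24 in Namalwa, 10.77 and 10.79 in Raji, and 10.30 and 10.38 in Ramos, empty array before miR26a. Again nearly all of the step lay in Namalwa, and the mean change was 0.17 (SE 0.11, 95% interval -0.08 to 0.43, limma adjusted p = 0.567). Without Namalwa the mean changes were 0.07 for HLA-B and 0.05 for HLA-C.

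HLA-E and HLA-F are nonclassical heavy chains. HLA-E shows leader peptides of other class I chains to receptors of natural killer cells. Its level was 9.55 and 10.31 in Namalwa, 10.12 and 10.20 in Raji, and 8.998 and 9.25 in Ramos, empty before miR26a. The 3 lines averaged a change of 0.37 (SE 0.14, 95% interval 0.06 to 0.67), or 1.29-fold, the largest of the 9 genes by brightest probe sets. By the mean of all probe sets it was 0.22, below the 0.27 of B2M and the 0.24 of HLA-F. The Namalwa step of 0.76 exceeded that of 99.1% of tested genes, and the Ramos step of 0.26 that of 88.9%, while Raji moved by 0.08. HLA-E did not pass over all genes (unadjusted p = 0.0232, limma adjusted p = 0.297), and without Namalwa its mean change was 0.17 (adjusted p = 0.699, within a range of 0.0918 to 1.00 over 13 alternatives). HLA-F stood at 8.65 and 9.02 in Namalwa, 8.89 and 8.91 in Raji, and 8.25 and 8.30 in Ramos. Its mean change was 0.15 (SE 0.11, limma adjusted p = 0.622), with 0.37, 0.02 and 0.06 in Namalwa, Raji and Ramos. Without Namalwa it was 0.04.

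B2M is the light chain with which class I heavy chains pair. Its brightest probe set was at 12.93 and 12.88 in Namalwa, 12.20 and 12.50 in Raji, and 12.71 and 12.60 in Ramos, empty before miR26a. Unlike the heavy chains, it was higher with miR26a in Raji only, by 0.29, and its mean change was 0.04 (SE 0.11, 95% interval -0.21 to 0.30, limma adjusted p = 0.917). Its other 2 probe sets were higher with miR26a in every line, by 0.47, 0.30 and 0.04 for the brighter and by 0.57, 0.52 and 0.43 for the dimmer in Namalwa, Raji and Ramos. The direction in Namalwa and Ramos thus depended on which B2M probe set was read.

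TAP1 and TAP2 form the transporter. TAP1 was at 7.51 and 7.28 in Namalwa, 7.94 and 7.58 in Raji, and 6.89 and 6.75 in Ramos, empty before miR26a, so it was lower with miR26a in each line while the heavy chains were higher. The changes were -0.23, -0.36 and -0.14, and their mean was -0.24 (SE 0.10, 95% interval -0.47 to -0.01), which left 84.5% of the empty level. It did not pass over all genes (unadjusted p = 0.0411, limma adjusted p = 0.355), and its mean change without Namalwa was -0.25. TAP1 had 1 probe set. TAP2 was at 8.49 and 8.40 in Namalwa, 8.98 and 9.02 in Raji, and 8.75 and 8.82 in Ramos. Its mean change was 0.01 (SE 0.10, 95% interval -0.22 to 0.23, limma adjusted p = 0.989). Its other 2 probe sets above the level minimum were higher in Namalwa, by 0.16 and 0.55, and lower in Raji, by -0.20 and -0.15, so the sign in these lines depended on the probe set.

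PSMB8 and PSMB9 are the immunoproteasome subunits that replace PSMB5 and PSMB6. PSMB8 was at 8.58 and 8.98 in Namalwa, 8.52 and 8.53 in Raji, and 8.36 and 8.53 in Ramos, empty before miR26a, and its mean change was 0.19 (SE 0.11, limma adjusted p = 0.511), or 0.09 without Namalwa. PSMB9 was at 8.20 and 8.42 in Namalwa, 8.28 and 7.99 in Raji, and 8.11 and 7.97 in Ramos. It was higher with miR26a in Namalwa by 0.22 and lower in Raji and Ramos, and the mean change was -0.07 (SE 0.12, limma adjusted p = 0.861). Without Namalwa its mean change was -0.21. In Raji and Ramos PSMB9 thus had the sign of its neighbour TAP1, and in Namalwa that of the heavy chains. With 1 pair a line, a difference of the change between lines has no test.

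**Figure D2:**
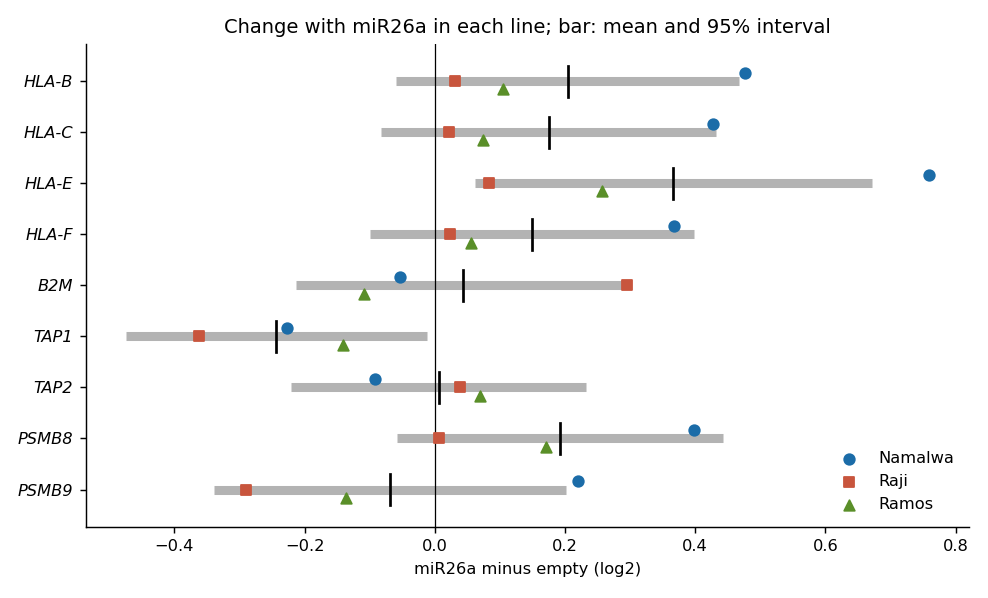
Change with miR26a (miR26a minus empty, log2) of the 9 genes, with a point for each line and, behind, the mean (black tick) and its 95% interval from limma (grey bar). The Namalwa points of the heavy chains and PSMB8 lie between 0.37 and 0.76, those of Raji between 0.01 and 0.08.

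Heavy chain genes are alike in sequence, and 11 of the 23 probe sets have names ending in x_at, which in Affymetrix naming marks probes that can also bind other transcripts. All 7 probe sets of HLA-B and HLA-C are of this kind. So are the brightest probe set of HLA-E and the HLA-F probe sets above the level minimum. Signals of these probe sets cannot be assigned to 1 gene with certainty. Of the 21 probe sets above the level minimum, 18 were higher with miR26a in Namalwa, 11 in Raji and 17 in Ramos, with median changes of 0.40, 0.01 and 0.08. All 11 x_at probe sets were higher in Namalwa, 6 were in Raji and 10 in Ramos. For HLA-B, 1 of 3 probe sets was higher in Raji, for HLA-E 1 of 3 and for HLA-C 2 of 4, so the small Raji increases of these chains rested on the probe set. The HLA-E probe set whose name does not end in x_at changed by 0.33, -0.10 and 0.01 in Namalwa, Raji and Ramos, with a mean of 0.08 (limma adjusted p = 0.835). With the mean of all probe sets, 4 genes were higher in every line in place of 5. B2M was then among them, while HLA-B and HLA-E were not, being lower in Raji by that mean. The third HLA-F probe set and the fourth of TAP2 lay below the level minimum.

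**Figure D3:**
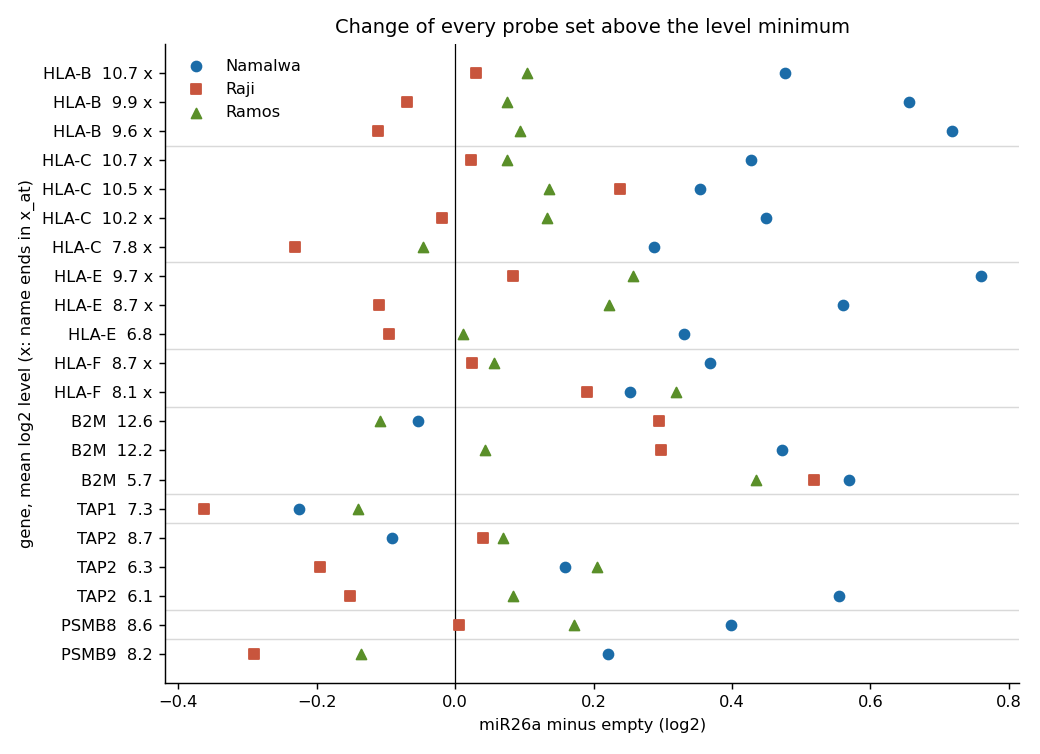
Change with miR26a (log2) in each line for the 21 probe sets of the 9 genes above the level minimum, labelled with the gene and the mean log2 level, x marking names that end in x_at. Namalwa points of the heavy chains lie to the right of 0 in all probe sets, and Raji points lie on both sides.

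Between the lines, Ramos had the lowest heavy chain and TAP1 levels by the brightest probe sets. The second brightest HLA-C probe set put Raji lowest, at 10.29 against 10.34 in Ramos and 11.00 in Namalwa. It was the only heavy chain probe set above the level minimum on which Ramos was not lowest. Against Ramos, 5 of the 9 genes were higher in Namalwa, where 8.09% of all genes were, and the same 5, HLA-B, HLA-C, HLA-E, HLA-F and TAP1, were higher in Raji, where 26.1% of all genes were (limma, adjusted p under 0.05, group as a block). None of the 9 was lower in Namalwa or Raji than in Ramos by that test, as 6.57% and 24.4% of all genes were. Counting both directions, 5 of 9 passed in each, against 14.7% and 50.5% of all genes. Both comparisons share the Ramos arrays. Between Namalwa and Raji, 2 were higher in Namalwa (23.4% of all genes) and 2 lower (22.8%), together 4 against 46.1% of all genes. In neither Namalwa comparison was any of the 9 past 2-fold, as 14% of all genes were against Raji and 2.83% against Ramos. The 2 arrays of a line differ in miR26a, so the SD of a line given here includes that step.

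HLA-B was highest in Namalwa, at 11.14 ± 0.34 (SD, n = 2), then in Raji, at 10.67 ± 0.02, and lowest in Ramos, at 10.28 ± 0.07. The arrays of the 3 lines did not overlap. HLA-B exceeded Ramos by 0.86 in Namalwa (SE 0.14, limma adjusted p = 0.00392) and by 0.39 in Raji (SE 0.14, limma adjusted p = 0.0442), and Namalwa exceeded Raji by 0.47 (limma adjusted p = 0.0237). HLA-C was at 11.03 ± 0.30, 10.78 ± 0.02 and 10.34 ± 0.05 in Namalwa, Raji and Ramos (SD, n = 2 each). Its differences from Ramos were 0.69 for Namalwa (limma adjusted p = 0.0107) and 0.44 for Raji (limma adjusted p = 0.0258), while Namalwa and Raji, at a difference of 0.25 (95% interval -0.07 to 0.56), did not pass (limma adjusted p = 0.180).

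For the nonclassical chains the order of the upper 2 lines was not resolved. HLA-E averaged 10.16 ± 0.06 in Raji, 9.93 ± 0.54 in Namalwa and 9.13 ± 0.18 in Ramos (SD, n = 2 each). Raji exceeded Ramos by 1.03 (SE 0.17, limma adjusted p = 0.000644), a 2.04-fold difference, and HLA-E was the only 1 of the 9 genes past 2-fold there (15.6% of all genes). Namalwa exceeded Ramos by 0.80 (limma adjusted p = 0.0115) and differed from Raji by -0.23 (95% interval -0.60 to 0.14, limma adjusted p = 0.288). HLA-F was at 8.83 ± 0.26, 8.90 ± 0.02 and 8.28 ± 0.04, with differences from Ramos of 0.55 for Namalwa (limma adjusted p = 0.0236) and 0.62 for Raji (limma adjusted p = 0.00397). Its difference between Namalwa and Raji was -0.07 (95% interval -0.37 to 0.24). The HLA-E probe set without the x_at ending gave 0.58 for Namalwa minus Ramos and 0.77 for Raji minus Ramos, past the threshold in both (adjusted p = 0.0227 and 0.00139).

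The transporter subunits had different orders. TAP1 was highest in Raji, at 7.76 ± 0.26, against 7.40 ± 0.16 in Namalwa and 6.82 ± 0.10 in Ramos (SD, n = 2 each). Raji exceeded Ramos by 0.93 (SE 0.13, limma adjusted p = 0.000207), Namalwa exceeded Ramos by 0.57 (limma adjusted p = 0.0151), and Namalwa minus Raji was -0.36 (limma adjusted p = 0.0396). TAP2 was also highest in Raji, at 9.001 ± 0.03, but lowest in Namalwa, at 8.45 ± 0.06, with Ramos at 8.78 ± 0.05. Of its differences only Namalwa minus Raji, -0.55, passed (SE 0.12, limma adjusted p = 0.00491). The 3 lines did not overlap in TAP2 level, yet Namalwa minus Ramos, -0.34 (adjusted p = 0.107), and Raji minus Ramos, 0.22 (adjusted p = 0.171), did not pass.

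The order of the lines in B2M depended on the probe set, as the dimmest, with a mean level of 5.71, differed from the others. By the brightest probe set B2M was lowest in Raji, at 12.35 ± 0.21, against 12.91 ± 0.04 in Namalwa and 12.66 ± 0.08 in Ramos (SD, n = 2 each). The second brightest gave the same order, with 12.43, 12.00 and 12.30 in Namalwa, Raji and Ramos. By the brightest, Namalwa exceeded Raji by 0.56 (SE 0.14, limma adjusted p = 0.00902). Raji minus Ramos was -0.31 (limma adjusted p = 0.0930), but 0.33 by the dimmest B2M probe set (adjusted p = 0.0580), which also put Namalwa minus Raji at 0.14 (adjusted p = 0.414). Namalwa minus Ramos was 0.25 (limma adjusted p = 0.284) by the brightest probe set and 0.46 (adjusted p = 0.0366), past the threshold, by the dimmest, on which B2M was lowest in Ramos. The immunoproteasome subunits had no difference past the threshold in any pair of lines. PSMB8 was at 8.78 ± 0.28, 8.52 ± 0.00 and 8.44 ± 0.12 and PSMB9 at 8.31 ± 0.16, 8.13 ± 0.21 and 8.04 ± 0.10 in Namalwa, Raji and Ramos, with adjusted p from 0.137 to 0.640. Their largest difference was 0.34, for PSMB8 between Namalwa and Ramos (95% interval 0.03 to 0.65).

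**Figure D4:**
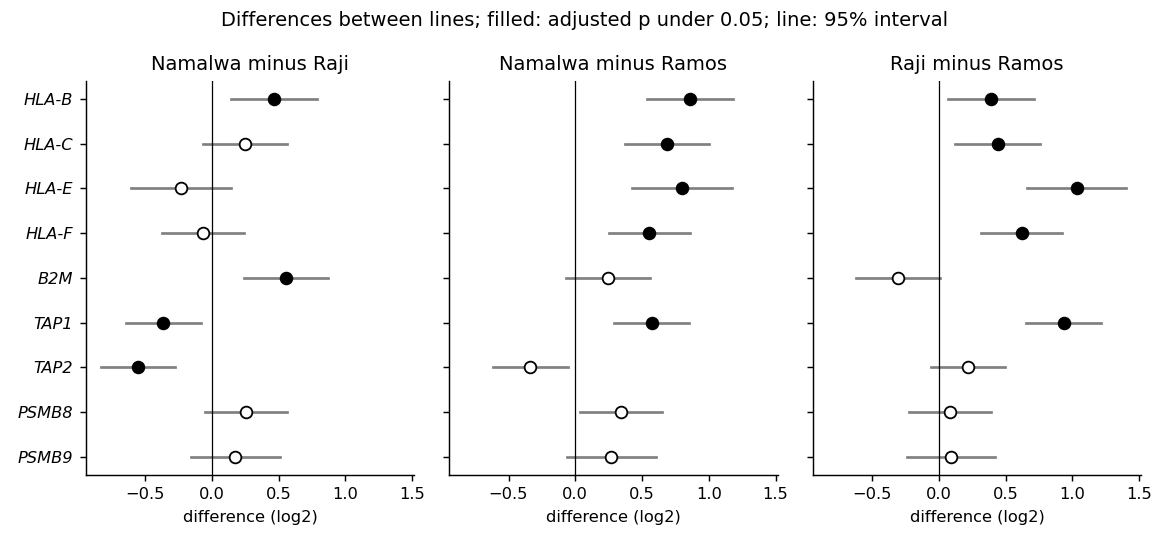
Differences between the lines (log2) for the 9 genes, with 95% intervals from limma; filled points have an adjusted p under 0.05. Against Ramos the 4 heavy chains and TAP1 lie to the right of 0 with filled points, while between Namalwa and Raji they lie on both sides.

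With 2 arrays a line, several of these calls rested on single arrays. Leaving out any 1 array of the compared lines kept the calls of HLA-B between Namalwa and Ramos, of TAP2 between Namalwa and Raji, and of HLA-E, HLA-F and TAP1 between Raji and Ramos. The others were lost in at least 1 case. Between Namalwa and Ramos, only HLA-B of the 5 genes passed without the Namalwa miR26a array, or without the Ramos miR26a array. There 3 passed without the Ramos empty array and 4 without the Namalwa empty array, the array with the ACTB difference. Between Raji and Ramos, 3 passed without the Raji empty, the Ramos empty or the Ramos miR26a array. Between Namalwa and Raji, 2 of the genes passed without the Namalwa empty or the Raji empty array, and TAP1 (adjusted p = 0.112) and HLA-B (adjusted p = 0.235) were lost without the Namalwa miR26a array. HLA-B (adjusted p = 0.149) was also lost there without the Raji miR26a array. The HLA-B call between Raji and Ramos was also lost with median centring (adjusted p = 0.0731) and with no level minimum (adjusted p = 0.0608), and that between Namalwa and Raji with the mean of all probe sets (adjusted p = 0.0861). TAP1 between Namalwa and Raji was lost with median centring (adjusted p = 0.0505) and with no level minimum (adjusted p = 0.0599), and HLA-C between Raji and Ramos with the mean of all probe sets (adjusted p = 0.0559). With no moderation of the spread 0 of the 9 passed in any pair of lines.

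Over the 6 arrays the levels of the heavy chains followed each other, which describes 3 lines with 2 arrays each rather than 6 independent points. Pearson's r was 0.98 between HLA-B and HLA-C and 0.98 between HLA-E and HLA-F, pairs whose probe sets can share signal. PSMB8 followed HLA-B at 0.92. TAP2 ran the other way from B2M, at -0.89, and TAP1 and TAP2 had an r of 0.25. Among 3426 genes outside the 9 that spanned at least 1 log2, the 5 most like the mean of the heavy chains were TMEM14B (0.99), the kinase FES (0.98), TASOR (0.98), PKHD1L1 and ST20-AS1 (0.96 each), and 42 had an r above 0.9. TAP1, TAP2, PSMB8 and PSMB9 did not share a profile. TAP2 had an r of -0.65 with PSMB8 and -0.61 with PSMB9. TAP1 had 0.13 with PSMB8 and 0.40 with PSMB9, and PSMB8 had 0.70 with PSMB9. Their mean spanned 0.41 log2 over the arrays, against 1.04 for the heavy chains. Likeness to it is therefore not likeness to each of its genes. The 5 most like this mean were the IgE receptor FCER2 (0.99), SESTD1 (0.98), the B-cell transcription factor SPIB (0.98), IL4I1 (0.98) and CPNE5 (0.98). Of the 3426 genes, 197 lay above 0.9 with it.

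The rest of the pathway did not pass with miR26a either: 0 genes of the other lists were called, the result for all genes. The 6 other class I chains and class I-like molecules tested were all positive in their mean change, with a median of 0.16. Largest was MR1, which presents vitamin metabolites, at 0.46 (0.54, 0.39 and 0.45 in Namalwa, Raji and Ramos, limma adjusted p = 0.115). FCGRT, the neonatal Fc receptor, was at 0.32. HLA-G, whose probe sets end in x_at, was at 0.19, with 0.43 in Namalwa and -0.03 in Raji. The 6 genes of the loading complex and quality control had a median of -0.08. TAPBP, the tapasin that bridges TAP to the heavy chain, was at 0.22, nearly all of it in Namalwa (0.55). TAPBPL, which edits peptides outside that complex, was at -0.27 with -0.25, -0.32 and -0.26 in the 3 lines, at levels of 4.56 to 5.42, close to the level minimum.

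Peptide trimming enzymes had a median of 0.01 over 5 genes, with the aminopeptidase NPEPPS at 0.21. Of the 3 other interferon-inducible proteasome genes tested, PSMB10, the remaining immunoproteasome catalytic subunit, was at 0.28 (0.61, -0.11 and 0.33 in Namalwa, Raji and Ramos). POMP, which assembles the particle, was at -0.16. The constitutive subunit PSMB5 was at 0.23, with 0.65 in Namalwa, 0.03 in Raji and 0.02 in Ramos. Of 16 transcriptional regulators, 6 were higher and 1 lower in all 3 lines (15.5% and 19.6% of all genes), with a median of 0.06. IRF9, part of the interferon-activated factor ISGF3, was at 0.69 (SE 0.14, limma adjusted p = 0.101), with 1.10, 0.60 and 0.36 in Namalwa, Raji and Ramos. NLRC5, the class I transactivator, was at 0.23, with 0.08, 0.25 and 0.35 in Namalwa, Raji and Ramos. The smallest NLRC5 step was in Namalwa, the line with the largest heavy chain steps and the array that stood apart. A relation between NLRC5 and the heavy chains was not tested. Among 7 interferon receptors and kinases the receptor chain IFNGR1 was at 0.25, and the median was 0.02.

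Interferon-stimulated genes and MHC class II genes are the lists nearest to these. The 18 interferon-stimulated genes tested had a median change of 0.31, against a median of -0.01 over all genes. Of the 18, 11 were higher in all 3 lines (15.5% of all genes) and 2 lower (19.6%). IFIT1 was at 1.25, with a Raji step of 2.10 from a level of 3.78, below the level minimum. For the 9 class I presentation genes the median was 0.15, and in Raji 0.02. The 11 class II genes had a median of 0.22, with HLA-DQA1 at 0.87. Of these, 1 was higher in all 3 lines (15.5% of all genes) and 0 lower (19.6%). The differences between these lists were not tested, and 0 genes of either passed.

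**Figure D5:**
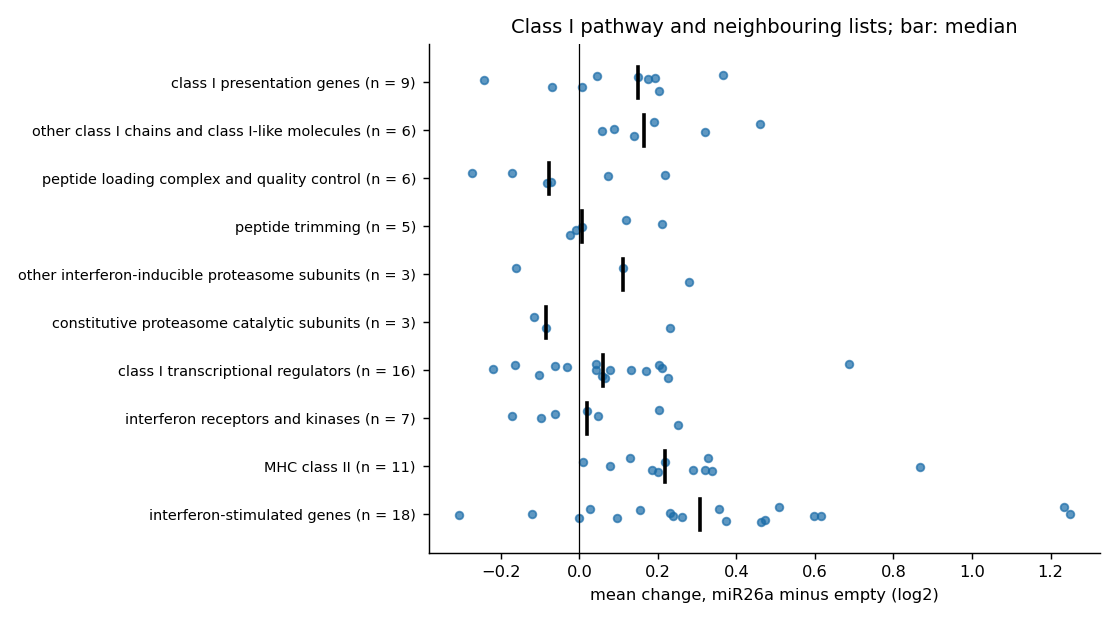
Mean change with miR26a (log2) of each tested gene in the class I pathway lists, MHC class II and the interferon-stimulated genes, 1 point a gene, with the median as a bar. The median of the 9 class I presentation genes is 0.15, between that of the regulators at 0.06 and that of the interferon-stimulated genes at 0.31.

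Of the class I pathway lists outside the 9 genes, ERAP2 had the largest difference between lines. ERAP2, which trims peptides in the endoplasmic reticulum, was at 5.42 and 5.06 in Raji but at 7.96 and 8.26 in Namalwa and 7.87 and 7.95 in Ramos. Namalwa exceeded Raji by 2.87 (SE 0.16, limma adjusted p = 6.61e-07) and Raji minus Ramos was -2.67 (limma adjusted p = 9.63e-07). Of the 5 trimming enzymes, 1 was higher and 3 lower in Namalwa than in Raji (46.1% of all genes were called), and 2 were higher and 2 lower in Raji than in Ramos (50.5% of all genes). Against Ramos, TPP2 was lower in Namalwa by a difference of -0.67 and in Raji by -0.65. ERAP1, the partner of ERAP2, was lower in Namalwa than in Raji, by -0.53, and than in Ramos, by -0.47. NPEPPS and THOP1 were higher in Raji than in Ramos by 0.70 and 0.41, and the Namalwa minus Raji differences were -0.59 and -0.66.

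Of 6 genes of the loading complex and quality control, 4 were lower in Namalwa than in Raji (22.8% of all genes). In Raji 4 were higher than in Ramos (26.1% of all genes) and 2 lower (24.4%), TAPBPL and the folding sensor UGGT1. CANX, a chaperone of new heavy chains, was at 11.70 and 11.64 in Raji, against 10.29 and 10.23 in Namalwa and 10.40 and 10.27 in Ramos. Raji exceeded Ramos by 1.33 (SE 0.12, limma adjusted p = 1.57e-05). The disulfide isomerase PDIA3, TAPBP and the chaperone CALR had Namalwa minus Raji differences of -1.04, -0.69 and -0.61 (adjusted p = 0.00148, 0.00462 and 0.00504). TAPBPL was lower in Raji than in Ramos, by -0.57, and in Namalwa than in Ramos, by -0.48. The constitutive subunit PSMB6 was higher in Raji than in Ramos by 0.88, and its Namalwa minus Raji difference was -0.97. None of the 3 other inducible proteasome genes passed. PSMB10 was at -0.37 and -0.41 for Namalwa minus Raji and Namalwa minus Ramos, and POMP at -0.19 for Raji minus Ramos.

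The regulators had no common order across the lines. NLRC5 was lowest in Raji, at 5.57 and 5.83, against 7.30 and 7.37 in Namalwa and 6.88 and 7.23 in Ramos. By their brightest probe sets all 4 heavy chains were lower in Ramos than in Raji, and a relation to NLRC5 was not tested. NLRC5 in Namalwa exceeded Raji by 1.64 (SE 0.13, limma adjusted p = 6.49e-06) and Raji minus Ramos was -1.36 (limma adjusted p = 2.06e-05). The NF-kB subunit REL had the opposite order, with Raji above Ramos by 1.37 and Namalwa minus Raji at -1.16. Of 16 regulators, 6 were higher and 4 lower in Namalwa than in Raji (23.4% and 22.8% of all genes). In Raji 4 were higher, REL and RFXANK among them, and 7 lower than in Ramos (26.1% and 24.4% of all genes). In Namalwa 1 was higher than in Ramos (8.09% of all genes), IRF9, by 0.86 (limma adjusted p = 0.00964). IRF8, a lymphoid interferon regulatory factor, had differences of 0.66 and -0.74 for Namalwa minus Raji and Raji minus Ramos. RFXANK, a subunit of the factor that binds MHC promoters, was higher in Raji than in Ramos by 0.78.

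Among interferon receptors and kinases, IFNGR2 was highest in Raji, with 1.09 for Raji minus Ramos (limma adjusted p = 8.78e-05) and -0.62 for Namalwa minus Raji, and it was also higher in Namalwa than in Ramos by 0.47. JAK1 was lowest in Raji, with 0.61 and -0.58 for Namalwa minus Raji and Raji minus Ramos, and TYK2 was highest there, with -0.58 and 0.72. Of the class I-like molecules, MICB, a stress-induced ligand of natural killer cell receptors, was lower in Raji than in Ramos, by -1.33, and Namalwa exceeded Raji by 1.08 (limma adjusted p = 2.64e-05 and 0.000120). MICA, its close relative, was higher in Namalwa than in Ramos by 0.90 and than in Raji by 0.52. FCGRT and MR1 were higher in Namalwa than in Raji by 0.98 and 0.50 and had Raji minus Ramos differences of -0.58 and -0.45. HLA-G followed the heavy chains, with 0.56 for Namalwa minus Ramos and 0.67 for Raji minus Ramos (limma adjusted p = 0.0282 and 0.00346). Of the 11 class II genes 10 were higher in Raji than in Ramos (26.1% of all genes) and 1 lower (24.4%), with HLA-DOB higher by 2.28, where the largest difference of the 9 class I genes was the 1.03 of HLA-E.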

How the data were processed

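The deposited log2 values of 6 arrays were used unchanged. They are RMA summaries per probe set, a method that brings arrays to a common distribution. Per the labels' design text RMA was run in BRB Array Tools, and per the submitters' processing notes GCOS and RMA were used, without versions. That text also mentions filtering, but all 54675 probe sets are in the table. A change common to all RNAs would not be seen on this scale. The number of arrays limits the precision.

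Probe sets with 1 platform symbol (41091) were named, with symbols updated through Entrez IDs for 41037 (RefSeq table of GRCh38.p14, names and neighbours only), and the brightest per gene was kept. Genes with a mean of at least 4.42, the median of all probe sets, were tested with limma (3.58.1, R 4.3.3): miR26a minus empty with the line as a block, and 3 pairs of lines with the group as a block, with Benjamini-Hochberg adjustment over 12012 genes and a threshold of 0.05. Same-line arrays deviated together (correlations 0.861, 0.950 and 0.917 in Namalwa, Raji and Ramos), and the pairing comes from the cell line. The fits were tested on simulated data. The members and lists were chosen with earlier results of these data known. Named besides the members were up to 4 called genes per list and comparison by size of change, the largest where none was called, and the 5 genes most like 2 member means; levels of a few others are given for context, chosen after their values were seen. Some genes of the lists were not analysed here, and CD1D and 6 interferon-stimulated genes lay below the level minimum. Alternatives were other scalings, level minimums, probe set rules and variance models, no block or a random block, no group term, and leaving out lines or arrays.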

Additional observations from a re-analysis of the deposited data

Results flagged for a closer look

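Changes with miR26a had opposite signs in different lines for 3 of the 9 genes; with 1 pair of arrays a line, these differences were not tested. B2M changed by -0.0535 in Namalwa, 0.29 in Raji and -0.11 in Ramos by its brightest probe set, while its other 2 probe sets were higher in all 3 lines. TAP2 changed by -0.0917, 0.0395 and 0.0695, beside an SE of 0.10 of its mean change, and its other 2 probe sets above the level minimum had the opposite sign in Namalwa (0.16 and 0.55) and in Raji (-0.20 and -0.15). PSMB9 changed by 0.22 in Namalwa, -0.29 in Raji and -0.14 in Ramos. The Namalwa empty array is the one with the ACTB difference of 3.58 log2 between the 3′ and 5′ ends, and its part in these signs was not tested.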

How the results depend on the processing

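With miR26a, 0 of the genes tested among the 9 passed in each of 13 alternatives; HLA-F was not tested without x_at and s_at probe sets. Among all genes, 0 passed with no replicate block, so the pairing changed no call, while 50 passed when only genes above the 75th percentile were tested, 102 under a robust prior that follows intensity, and 0 to 203 without 1 line (0 without Namalwa, 203 without Raji and 23 without Ramos). Without 1 line, a choice made after seeing the data, 5 to 6 of the 9 genes were higher and 1 to 2 lower in every remaining line. With no moderation, 490, 0 and 988 genes passed for Namalwa minus Raji, Namalwa minus Ramos and Raji minus Ramos, and 0 of the 9 in each. With no group term, 2 of the 9 passed in the first comparison in place of 4 and 3 in the second in place of 5. Without 1 array, 2 to 3 of the 9 passed in the first, 1 to 4 in the second and 3 to 6 in the third, and 870 to 983 of all genes in the second (936 without the Namalwa empty and 957 without the Ramos miR26a array). The cause was not tested.

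Of 464 values of the 9 genes under alternatives, 398 kept their direction and side of the threshold, 50 lost a call, 5 gained one and 11 changed sign. Other level minimums, variance models, block choices and dropping the group term left the estimate of a gene unchanged, so no sign could turn there. The 11 came from leaving out a line or an array, or from the probe set rule without x_at or s_at. Without 1 line, the change with miR26a ran from -0.0812 (without Raji) to 0.12 for B2M, -0.0261 (without Ramos; -0.0111 without Raji) to 0.05 for TAP2 and -0.21 to 0.0416 (without Raji) for PSMB9. Without 1 array, Namalwa minus Raji ran from -0.53 to 0.0633 for HLA-E, -0.23 to 0.10 for HLA-F (0.0279 without Raji empty) and -0.0394 to 0.39 for PSMB9, and Raji minus Ramos from -0.0567 to 0.22 for PSMB8 and -0.0733 to 0.26 for PSMB9. B2M in Raji minus Ramos turned to 0.33 with the brightest probe set without an x_at or s_at ending.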
